A study of Mus musculus with 16 samples.

Results

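The fibrillar collagen genes were examined in the livers of wild type (WT) and Lcn2-/- mice with and without repeated CCl4, a solvent that injures hepatocytes and scars the liver. They were the 8 genes Col1a1, Col1a2, Col2a1, Col3a1, Col5a1, Col5a2, Col5a3 and Col11a1, taken by gene name from the 36451 gene names on the array. The set was chosen with earlier results of these data known, and 3 other fibrillar collagen genes on the array are given later. Each was read by 1 probe of 60 bases printed at 1 spot. Of the 8, 6 passed the filter on dim probes and were tested among 24325 genes, and Col2a1 and Col11a1 were not well above background on any of the 16 arrays.

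All mice were male BALB/c on regular chow, aged 6 to 8 weeks when the 4 weeks of treatment began. Liver RNA was hybridised to 1 array per sample. The CCl4 groups were WT mice (n = 5) and Lcn2-/- mice (n = 4) given 0.5 ml/kg CCl4 in corn oil into the peritoneum, 2 injections per week for 4 weeks, and killed 48 h after the last dose. The control groups, per the study's methods given corn oil, were WT mice (n = 4) and Lcn2-/- mice (n = 3). Per the study's methods the Lcn2-/- line was made on a mixed background of other strains before it was backcrossed to BALB/c. The labels number the samples as replicates and say nothing of pooling or of separate animals, so p-values measure the spread between these samples.

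Fibrillar collagens are the rope-like collagens of scar. Their chains wind into a rigid helix inside the cell, lose their end pieces outside it, line up in staggered fibrils and are then cross-linked. In the liver the scar fibrils are mainly type I (Col1a1 with Col1a2) and type III (Col3a1) collagen, type V (Col5a1, Col5a2, Col5a3) starts the fibrils and limits their width, and types II (Col2a1) and XI (Col11a1) belong mainly to cartilage. Hepatic stellate cells and portal fibroblasts are the known liver sources.

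Between 51.6% and 60.9% of the spots of an array were well above background, and no gene spot was saturated. The Lcn2 probe checked the genotype labels. Every Lcn2-/- array, from 10.46 to 12.25 on the log2 scale, lay below every WT array, from 13.80 to 17.57. All 7 Lcn2-/- arrays still carried Lcn2 signal marked well above background, with processed signals from 1044 to 5145 intensity units, and whether the probe lies in the deleted part of the gene was not analysed here. Lcn2 was lower in Lcn2-/- by a log2 difference of -3.33 (SE 0.668, limma adjusted p = 0.0394) under CCl4 and -4.15 (SE 0.761, adjusted p = 0.0214) in controls. The hepatocyte markers Alb, Apoa1, Ttr, Cps1 and Serpina1c were well above background on every array, as the tissue label says. All 7 controls and 1 WT CCl4 array (replicate 1) lay on slide 1 and the other 8 CCl4 arrays on slide 2, and apart from WT CCl4 replicate 1 the WT arrays lay in row 1 of a slide and the Lcn2-/- arrays in row 2. Slide and treatment, and likewise row and genotype, are therefore told apart by this 1 array alone.

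The sequences upstream of the genes that rose were set beside the upstream sequence of Col5a3, which did not, because RNA levels are the readout here. A RefSeq promoter table (GRCm38.p6) held entries for 5 of the 8 genes, and Col1a1, Col2a1 and Col5a2 were not among them. The 250 bases before the annotated start are given 5′ to 3′ on the gene's strand. Capitals mark matches on either strand to the CCAAT box (CCAAT), the GC box (GGGCGG), the TATA box (TATAAA), the SMAD motif (CAGACA) or the AP-1 motif (TGANTCA, where N is any base), and none of these matches overlap. The coordinates are those of GRCm38.p6, while the probe positions given later are on mm9.
Col1a2 (chr6:4505368-4505617, plus strand): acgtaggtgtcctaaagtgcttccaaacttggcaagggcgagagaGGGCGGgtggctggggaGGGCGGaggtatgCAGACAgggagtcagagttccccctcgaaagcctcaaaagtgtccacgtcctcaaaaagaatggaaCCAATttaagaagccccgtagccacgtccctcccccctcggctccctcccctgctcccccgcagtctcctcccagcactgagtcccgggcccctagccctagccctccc
Col3a1 (chr1:45311288-45311537, plus strand): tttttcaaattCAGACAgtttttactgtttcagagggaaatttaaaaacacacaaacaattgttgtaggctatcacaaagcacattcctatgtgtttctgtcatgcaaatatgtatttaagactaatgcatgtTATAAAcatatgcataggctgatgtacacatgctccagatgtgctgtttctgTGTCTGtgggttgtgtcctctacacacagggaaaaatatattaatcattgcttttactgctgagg
Col5a1 (chr2:27886175-27886424, plus strand): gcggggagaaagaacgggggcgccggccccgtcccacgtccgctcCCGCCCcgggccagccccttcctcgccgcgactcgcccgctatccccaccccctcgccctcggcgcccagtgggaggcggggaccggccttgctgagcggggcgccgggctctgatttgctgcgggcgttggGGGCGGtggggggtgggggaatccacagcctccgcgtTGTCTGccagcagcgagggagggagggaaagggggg
Col5a3 (chr9:20815068-20815317, minus strand): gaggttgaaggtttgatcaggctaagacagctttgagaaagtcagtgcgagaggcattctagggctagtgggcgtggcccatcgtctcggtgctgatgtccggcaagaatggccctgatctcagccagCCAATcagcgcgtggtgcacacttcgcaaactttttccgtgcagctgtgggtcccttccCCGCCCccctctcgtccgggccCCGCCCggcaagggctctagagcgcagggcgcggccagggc

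These windows differed widely in base composition. G and C made up 35.2% of the Col3a1 window, 62% of that of Col1a2, 62.8% of that of Col5a3 and 76.4% of that of Col5a1, against a median of 52.4% over the 32851 promoters of the table. Col1a2, Col5a1 and Col5a3 each held 2 matches to GGGCGG, a letter run of 32.7% of all promoters, and Col3a1 held none. The Col1a2 window had CCAAT beginning 109 bases before the start and the Col5a3 window 122 bases before it, and 33.8% of all promoters held those letters. TATAAA was in the Col3a1 window alone of the 4 printed, 117 bases before the start, and in 12.4% of all promoters. CAGACA or its reverse stood in the windows of Col1a2, Col3a1 (2 matches) and Col5a1 but not in that of Col5a3, and in 17.1% of all promoters. TGANTCA, found in 6.75% of all promoters, was in none of these windows. The Col11a1 window, also in the table, held 1 match to CCAAT, 2 to GGGCGG and none to the other runs. The matches are a description of these windows and show no binding.

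The 60-base probes set what each value can count. The first 30 bases of the probes for both type I chains are given to show how unlike the partners are at the places read.
Col1a1: tgaccaactgaacgtgaccaaaaaccaaaa
Col1a2: accaagaattccgtgtggaggttggccccg
The longest run of bases shared between the probes of any pair of the 8 genes was 9, and no probe of another gene on the array shared a run of 20 bases with them.

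CCl4 raised 5 of the 6 tested fibrillar collagen genes in WT livers and 4 of 6 in Lcn2-/- livers (limma, adjusted p under 0.05 over all genes tested). Col1a1, Col1a2, Col3a1 and Col5a1 rose in both genotypes, Col5a2 rose in WT, and Col5a3 was called in neither. Slide as a fixed block left 4 called in WT and 3 in Lcn2-/-, with the CCl4 effect then resting on WT CCl4 replicate 1. Over all genes tested 16.7% were called in WT, 8.05% as higher, and 12.2% in Lcn2-/-, 6.57% as higher. The 4061 genes behind the WT share became 2484 without WT control replicate 1 and 2561 without WT control replicate 2, and the 2958 in Lcn2-/- became 1686 and 1682 without Lcn2-/- control replicates 1 and 2. The median response of the 6 genes was 2.44 on the log2 scale in WT and 2.33 in Lcn2-/-, against medians of -0.03 and -0.02 over all genes tested. Medians of the 6 that involve Lcn2-/- controls count Col5a2 at its fitted value, although it was well above background on 1 of those 3 arrays. In a whole liver, more cells of a type and more RNA per cell cannot be told apart.

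**Figure D1:**
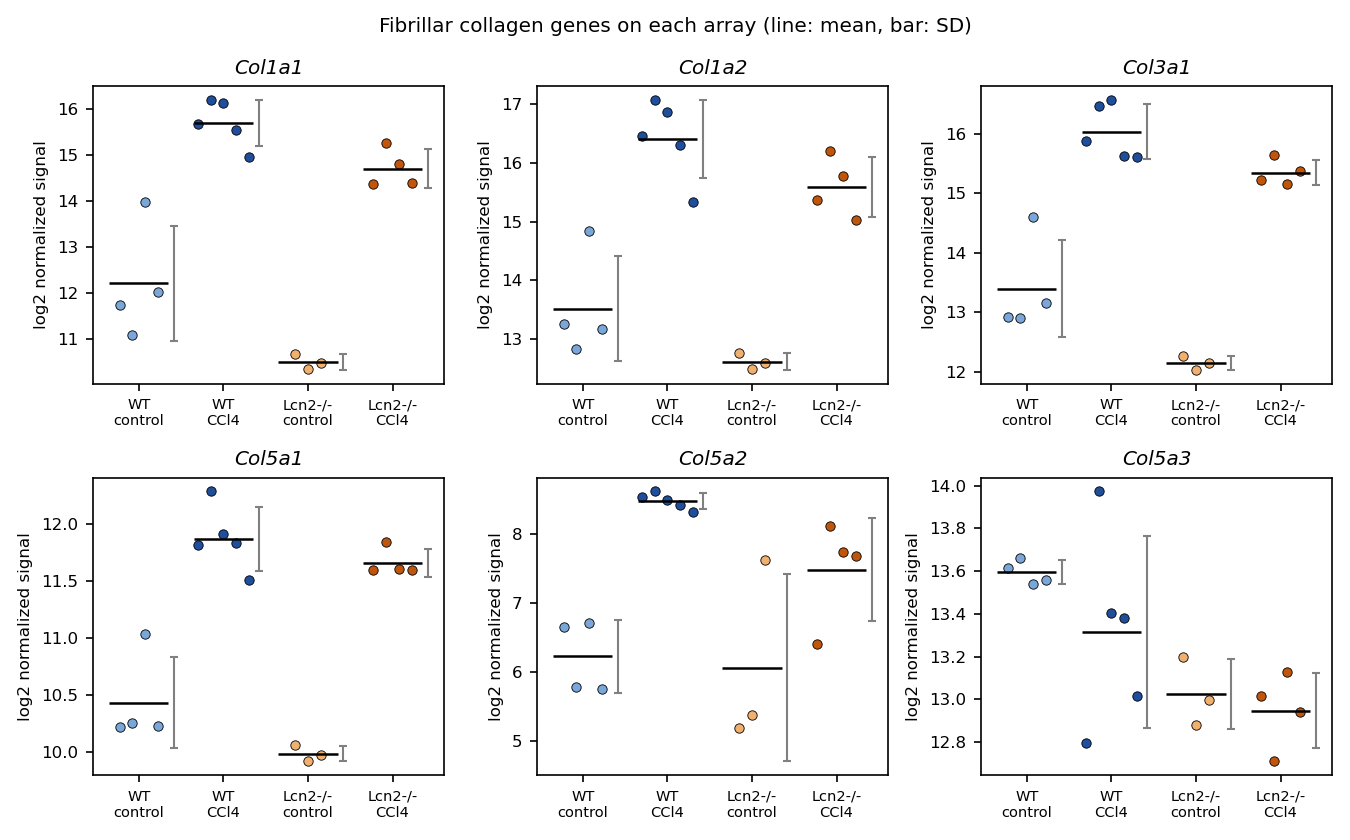
Log2 normalized signal of the 6 tested fibrillar collagen genes on each of the 16 arrays, by group, with the group mean as a line and the SD as a bar. For Col1a1 the CCl4 arrays lie between 14.37 and 16.20 and the controls between 10.33 and 13.98, while the Col5a3 groups overlap between treatments.

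Col1a1 encodes the main chain of type I collagen, and its probe lies at chr11:94813115-94813174 (mm9, plus strand). In WT controls its log2 signal was 11.74, 11.07, 13.98 and 12.02 on replicates 1 to 4, and in WT CCl4 it was 15.66, 16.20, 16.12, 15.54 and 14.94 on replicates 1 to 5. In Lcn2-/- controls it was 10.67, 10.33 and 10.47, and in Lcn2-/- CCl4 14.37, 15.25, 14.79 and 14.39. Every CCl4 array lay above every control array, and WT control 3 stood between its group and the CCl4 groups. The response was 3.49 on the log2 scale in WT (SE 0.452, 95% interval 2.52 to 4.46, adjusted p = 0.00013), which is 11.2-fold (95% interval 5.75 to 22.0). In Lcn2-/- it was 4.21 (SE 0.515, interval 3.11 to 5.31, adjusted p = 0.000139), or 18.5-fold (8.63 to 39.8). Col1a1 ranked 60 of the 24325 genes by its response in WT and 23 in Lcn2-/-.

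Col1a2 encodes the partner chain of type I collagen (probe at chr6:4490619-4490678, mm9, plus strand). Its log2 signal was 13.25, 12.82, 14.84 and 13.16 in WT controls, and 16.46, 17.07, 16.87, 16.31 and 15.34 in WT CCl4. The Lcn2-/- controls were at 12.77, 12.48 and 12.60, and the Lcn2-/- CCl4 arrays at 15.37, 16.21, 15.78 and 15.03. The same WT control was again the high one, and WT CCl4 replicate 5 was the lowest of its group, as it was for Col1a1. The response was 2.89 in WT (SE 0.405, adjusted p = 0.000232) and 2.98 in Lcn2-/- (SE 0.461, adjusted p = 0.000848), which is 7.43-fold and 7.89-fold. With slide as a fixed block, where the CCl4 effect rests on WT CCl4 replicate 1, the Lcn2-/- response of Col1a2 was 3.05 (adjusted p = 0.0919) and its WT response 2.95 (adjusted p = 0.0286).

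Col3a1 encodes the single chain of type III collagen, which is laid down with type I in early scar (probe at chr1:45405589-45405648, mm9, plus strand). It measured 12.92, 12.91, 14.61 and 13.16 in WT controls against 15.88, 16.48, 16.58, 15.63 and 15.61 in WT CCl4. In Lcn2-/- livers it measured 12.27, 12.04 and 12.15 in controls against 15.22, 15.64, 15.16 and 15.38 under CCl4. The treatment groups did not overlap in either genotype, and WT control 3 stood above the other WT controls. Col3a1 rose by 2.64 in WT (SE 0.316, adjusted p = 6.91e-05, 6.22-fold) and by 3.2 in Lcn2-/- (SE 0.36, adjusted p = 7.04e-05, 9.19-fold).

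Col5a1 encodes the chain found in most type V collagen (probe at chr2:27892892-27892951, mm9, plus strand). Its log2 signal was 10.22, 10.26, 11.04 and 10.23 in WT controls and 11.82, 12.29, 11.91, 11.83 and 11.51 in WT CCl4. The Lcn2-/- controls were at 10.06, 9.93 and 9.97 and the Lcn2-/- CCl4 arrays at 11.59, 11.85, 11.61 and 11.59. WT control 3 was again the high WT control, and the treatment groups did not overlap. It rose by 1.44 in WT (SE 0.177, adjusted p = 8.67e-05, 2.71-fold) and by 1.67 in Lcn2-/- (SE 0.202, adjusted p = 0.000128, 3.19-fold). The Col5a1 probe lies 4.35 Mb from the Lcn2 probe on chromosome 2, and whether DNA from the original background remains there was not tested.

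Col5a2 encodes the second chain of the usual type V molecule and is the neighbour of Col3a1, on the opposite strand (probe at chr1:45431204-45431263, mm9, minus strand). It was the dimmest of the 6 tested genes, well above background on 14 arrays, with 1 of the 3 Lcn2-/- controls among them. It measured 6.66, 5.78, 6.71 and 5.75 in WT controls and 8.53, 8.62, 8.49, 8.41 and 8.32 in WT CCl4, a rise of 2.25 (SE 0.45, adjusted p = 0.00331, 4.75-fold). When slide entered as a fixed block, the WT rise of Col5a2 was 2.30 and no longer passed (adjusted p = 0.11). In Lcn2-/- it measured 5.19, 5.37 and 7.62 in controls and 6.41, 8.11, 7.74 and 7.67 under CCl4. There Lcn2-/- control 3 lay among the CCl4 arrays and Lcn2-/- CCl4 1 below that control, so the groups overlapped. The limma adjusted p was 0.0877, and no difference is given because most of these controls were not well above background. The response passed without Lcn2-/- CCl4 replicate 1 (adjusted p = 0.0376) and without Lcn2-/- control replicate 3 (adjusted p = 0.00306), and did not with normexp background correction (adjusted p = 0.0843). For Col3a1, Col1a1 and Col1a2, Lcn2-/- control 3 lay between the other Lcn2-/- controls.

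Col5a3 encodes the third type V chain, known from a minor form of the molecule (probe at chr9:20574592-20574651, mm9, minus strand). It measured 13.62, 13.66, 13.54 and 13.56 in WT controls and 12.80, 13.97, 13.40, 13.38 and 13.02 in WT CCl4. The Lcn2-/- controls were at 13.20, 12.88 and 13.00 and the Lcn2-/- CCl4 arrays at 13.02, 12.71, 13.13 and 12.94. The treatment groups overlapped in both genotypes. The differences were -0.28 in WT (SE 0.187, 95% interval -0.68 to 0.12, adjusted p = 0.336) and -0.08 in Lcn2-/- (SE 0.212, interval -0.53 to 0.38, adjusted p = 0.854), so a rise as large as the lower bound for Col5a1 in WT, 1.06, lay outside both intervals. With slide as a fixed block Col5a3 was at -0.80 in WT (adjusted p = 0.109) and -0.72 in Lcn2-/- (adjusted p = 0.298), each below the interval without the block. The WT difference was -0.15 without WT CCl4 replicate 1 and -0.45 without WT CCl4 replicate 2.

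**Figure D2:**
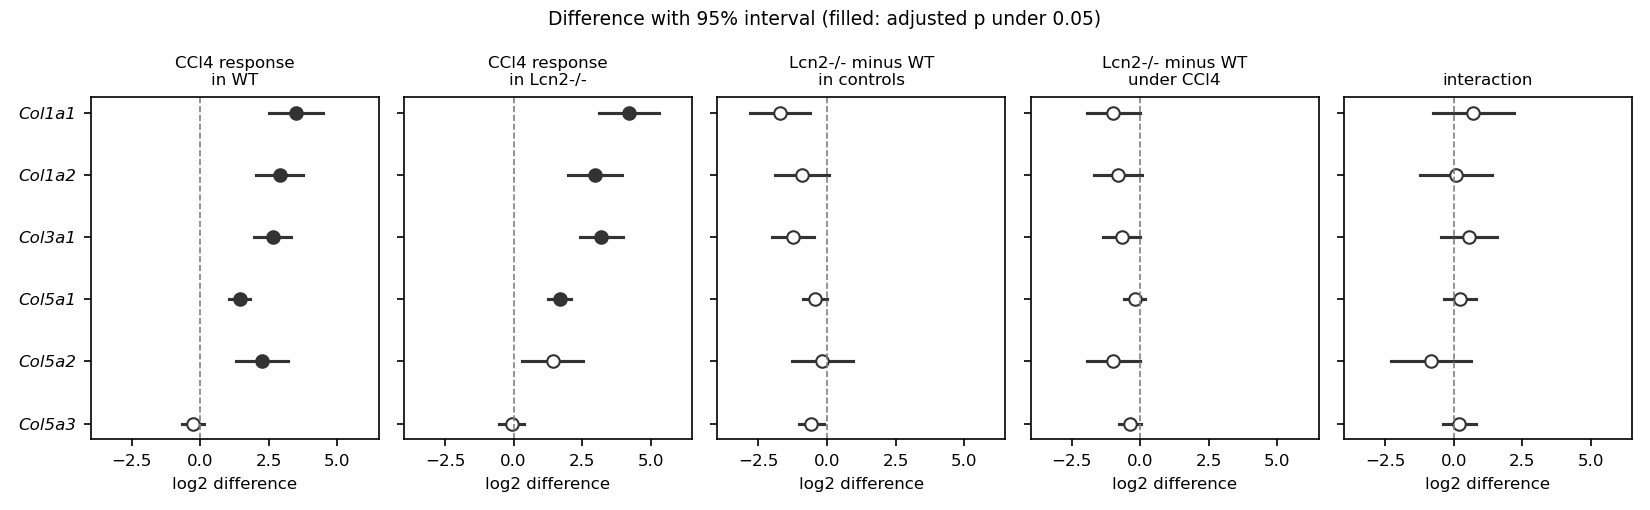
Log2 differences of the 6 tested fibrillar collagen genes in the 5 comparisons, with 95% intervals from limma, filled where the adjusted p was under 0.05. The CCl4 responses of Col1a1 (3.49 and 4.21) are the largest of the 6 in both genotypes, and no point is filled in either genotype comparison or in the interaction. The Col5a2 points that involve Lcn2-/- controls rest on spots mostly not well above background.

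Separation of the groups was counted as well. Of the 6 tested genes, 5 had every WT CCl4 array above every WT control array and 4 had every Lcn2-/- CCl4 array above every Lcn2-/- control array. Among all genes tested 8.09% and 12.1% were separated in that way. In the 16 fits that left out 1 array each, Col1a1, Col1a2, Col3a1 and Col5a1 were called in both responses every time. Their WT responses were largest without WT control replicate 3, at 4.08 for Col1a1, 3.33 for Col1a2, 3.04 for Col3a1 and 1.64 for Col5a1. Slide moved with treatment, and with slide as a fixed block the WT responses were 3.46 for Col1a1 (adjusted p = 0.0222), 2.48 for Col3a1 (0.0188) and 1.38 for Col5a1 (0.0202). The Lcn2-/- responses under the same block were 4.17 for Col1a1 (adjusted p = 0.0432), 3.00 for Col3a1 (0.0361) and 1.60 for Col5a1 (0.0469). Within slide 1 the WT comparison rests on 1 CCl4 array.

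WT control 3 was the one WT control partway to the CCl4 level. Each WT control was placed with the mean of the other WT controls, itself left out, as 0 and that of WT CCl4 as 1. WT control 3 stood at 0.58 for Col1a1, 0.53 for Col1a2, 0.53 for Col3a1 and 0.49 for Col5a1. The other 3 WT controls lay between -0.48 and -0.07 for these genes. Their zero includes the high WT control 3, which pushes them down, so the distance between these positions is not on 1 scale. For Col5a2 WT control 3 stood at 0.27, beside WT control 1 at 0.24. WT control 3 also had the highest Lcn2 signal of all arrays, 17.57, against 13.80 to 14.69 in the other WT controls. The part of this array in the comparisons is given by leaving it out.

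Whether Lcn2 loss changed the collagen genes was asked within each treatment. Under CCl4 all 6 tested genes were lower in Lcn2-/- than in WT, and none passed the adjusted test. Over all genes tested 0.65% passed, or 158 genes, which became 78, 98 and 102 without WT CCl4 replicates 2, 4 and 5 and 100 and 72 without Lcn2-/- CCl4 replicates 1 and 3. Without adjustment 3 of the 6 had p under 0.05 in limma, as did 3321 of the 24325 genes. The median difference of the 6 was -0.75, against -0.01 over all genes tested. Col1a1 was at 14.70 ± 0.416 in Lcn2-/- CCl4 (SD, n = 4) and 15.69 ± 0.507 in WT CCl4 (SD, n = 5). That difference, -0.99 (SE 0.452, 95% interval -1.96 to -0.02, adjusted p = 0.356, exact two-sided permutation p = 0.0317), put Lcn2-/- at 0.503 times the WT level (interval 0.257 to 0.983). Lcn2-/- CCl4 2, at 15.25, lay within the WT range, so the groups overlapped.

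Col1a2 differed by -0.82 (SE 0.405, interval -1.68 to 0.05, adjusted p = 0.396) and Col3a1 by -0.68 (SE 0.316, interval -1.36 to -0.01, adjusted p = 0.361). Col5a2 showed the widest separation, with all 4 Lcn2-/- CCl4 arrays (6.41 to 8.11) below all 5 WT CCl4 arrays (8.32 to 8.62). Its difference was -0.99 (SE 0.45, adjusted p = 0.353), and the exact two-sided permutation p of 0.00794 is the smallest that 5 against 4 arrays allow. Groups were separated in this direction for 3.34% of all genes tested, and Col5a2 was the 1 of the 6 collagen genes among them. Without Lcn2-/- CCl4 replicate 1 the Col5a2 difference was -0.63 (adjusted p = 0.712). Col5a1 differed by -0.21 (SE 0.177, interval -0.59 to 0.17) and Col5a3 by -0.37 (SE 0.187, interval -0.77 to 0.03). Without WT CCl4 replicate 2 they differed by -0.11 and -0.20. Within slide 2, that is without WT CCl4 replicate 1, the differences were -1.0 for Col1a1, -0.80 for Col1a2, -0.72 for Col3a1, -0.98 for Col5a2, -0.23 for Col5a1 and -0.50 for Col5a3, and none passed.

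In controls, which all lay on slide 1, Col1a1, Col1a2, Col3a1, Col5a1 and Col5a3 were again lower in Lcn2-/- and again none of the 6 passed the adjusted test (0.518% of all genes tested passed). Limma's unadjusted p was under 0.05 for 4 of the 6 and for 2023 of the 24325 genes, and the median difference of the 6 was -0.74, against -0.01 over all genes. All 3 Lcn2-/- controls lay below all 4 WT controls for Col1a1, Col1a2, Col3a1, Col5a1 and Col5a3, 5 of the 6, as for 5.6% of all genes tested. The differences were -1.71 for Col1a1 (SE 0.515, 95% interval -2.82 to -0.61, adjusted p = 0.223), -1.25 for Col3a1 (SE 0.36, interval -2.02 to -0.48, adjusted p = 0.198) and -0.90 for Col1a2 (SE 0.461, interval -1.89 to 0.08, adjusted p = 0.674). For Col5a3 the difference was -0.57 (SE 0.212, adjusted p = 0.406) and for Col5a1 -0.45 (SE 0.202, adjusted p = 0.561). None is given for Col5a2, for the detection in Lcn2-/- controls stated above. WT control 3 widened most of them, and without it they were -1.12 for Col1a1, -0.84 for Col3a1, -0.46 for Col1a2, -0.25 for Col5a1 and -0.59 for Col5a3. With 35 arrangements of 4 against 3 arrays the smallest exact two-sided permutation p is 0.0286, which Col3a1 and Col5a3 reached. These permutations take no account of the replicate numbers, which count as paired in controls, where they also match the column on the slide. With the replicate block in limma the differences were -1.33 for Col3a1 (adjusted p = 0.215) and -0.58 for Col5a3 (adjusted p = 0.508).

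The interaction asks whether the CCl4 response itself differed between genotypes, and it uses all 4 groups. No fibrillar collagen gene passed, none of the 6 had an unadjusted p under 0.05, and 0.0534% of all genes tested were called (13 genes, or 8 without Lcn2-/- CCl4 replicate 4). The Lcn2-/- response minus the WT response was 0.72 for Col1a1 (SE 0.685, 95% interval -0.75 to 2.19), 0.56 for Col3a1 (SE 0.479, interval -0.46 to 1.59) and 0.09 for Col1a2 (SE 0.614, interval -1.23 to 1.40). It was 0.24 for Col5a1 (interval -0.34 to 0.81) and 0.20 for Col5a3 (interval -0.40 to 0.81). Without WT control replicate 3 the interaction was 0.13 for Col1a1, 0.16 for Col3a1, 0.04 for Col5a1 and -0.35 for Col1a2. Without WT control replicate 2 it was 1.10 for Col1a1 and 0.32 for Col1a2. For Col5a3 it was 0.07 without WT CCl4 replicate 1 and 0.37 without WT CCl4 replicate 2. No Col5a2 value is given, since only replicate 3 of the Lcn2-/- controls was well above background. These intervals still hold differences in response of more than 1 on the log2 scale for Col1a1, Col1a2 and Col3a1.

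Chains that share a molecule or a fibril were compared within each array, so that every array served as its own reference. The levels of different probes cannot be set against each other, so only changes of the difference were read. For 5 pairs in 4 comparisons, 20 exact two-sided permutation tests were adjusted together, and none passed (smallest adjusted p = 0.0635). The smallest p such a test allows is 0.00794 for 5 against 4 arrays and 0.0286 for 4 against 3. A pair with full separation could therefore not pass this adjustment alone, and the lack of a pass says little about the pairs. The Col1a1 minus Col1a2 difference in Lcn2-/- controls was -2.10, -2.15 and -2.13, a spread of 0.03 (SD), and under CCl4 it was -1.0, -0.95, -0.99 and -0.64. The groups did not overlap, and the difference changed by 1.23 (exact permutation p = 0.0286, the smallest possible, adjusted p = 0.0635). In WT the same difference went from -1.51, -1.75, -0.86 and -1.14 to -0.80, -0.87, -0.75, -0.76 and -0.40, a change of 0.60 (exact permutation p = 0.0159, adjusted p = 0.0635), with WT control 3 within the CCl4 range. In controls this type I pair was lower in Lcn2-/- by a log2 difference of -0.81 with no overlap (exact permutation p = 0.0571, adjusted p = 0.104, with the pairing of controls not used), and under CCl4 by -0.18 with overlap (exact permutation p = 0.19, adjusted p = 0.267), or -0.26 without Lcn2-/- CCl4 replicate 4 and -0.10 without WT CCl4 replicate 5.

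**Figure D3:**
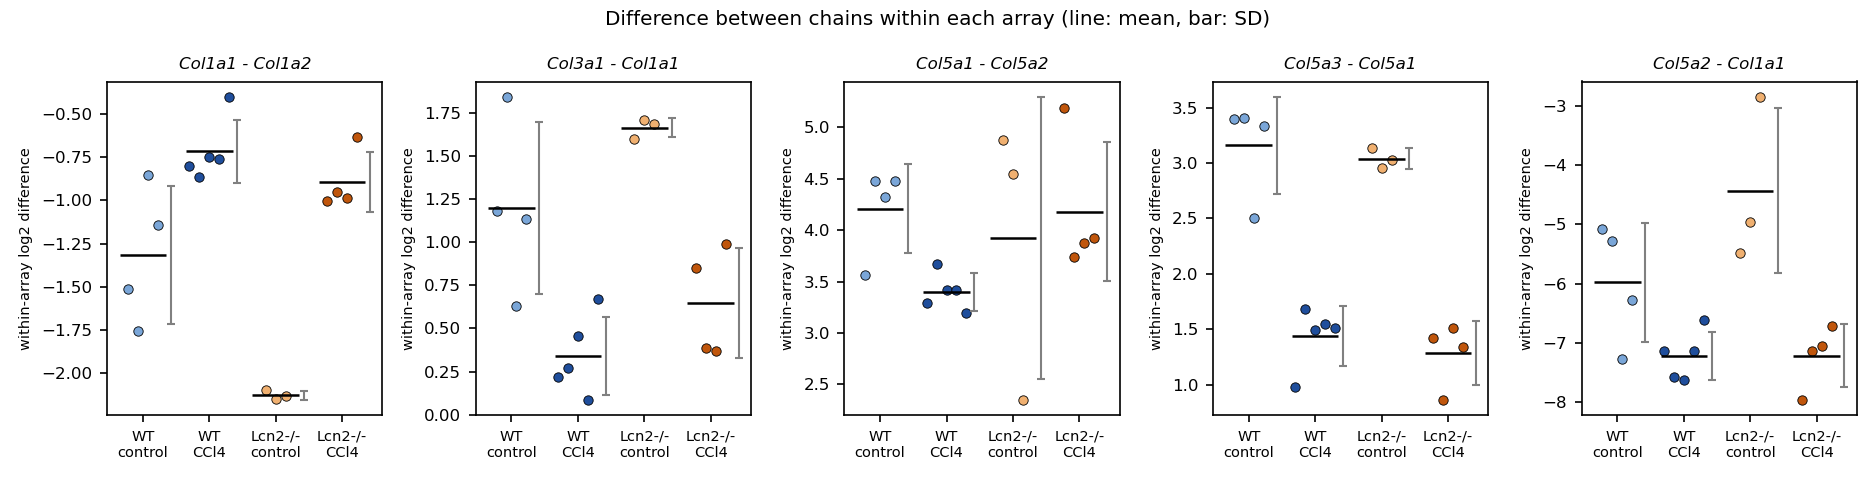
Difference in log2 signal between paired collagen chains within each array, by group, with the mean as a line and the SD as a bar. The Col1a1 minus Col1a2 difference lies between -2.15 and -2.10 in Lcn2-/- controls and between -1.0 and -0.40 on all CCl4 arrays, and only such changes between groups can be read, not the levels.

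The difference between type III and type I, Col3a1 minus Col1a1, went from 1.2 to 0.34 in WT (change -0.85, exact permutation p = 0.0159) and from 1.66 to 0.65 in Lcn2-/- (change -1.01, exact permutation p = 0.0286). Both have an adjusted p of 0.0635. Within type V, Col5a3 minus Col5a1 changed by -1.72 in WT (exact permutation p = 0.00794) and -1.75 in Lcn2-/- (exact permutation p = 0.0286), with no overlap in either genotype and an adjusted p of 0.0635 for both. Col5a1 minus Col5a2 was 3.4 in WT CCl4 and 4.18 in Lcn2-/- CCl4, a difference of 0.78 with no overlap (exact permutation p = 0.00794, adjusted p = 0.0635). Without Lcn2-/- CCl4 replicate 1 that difference was 0.45. Col5a2 minus Col1a1 changed by -1.24 in WT. Changes of the Col5a2 pairs against Lcn2-/- controls are not read, since Col5a2 was well above background on 1 of those 3 arrays.

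Col2a1 (probe at chr15:97806071-97806130, mm9, minus strand), the chain of cartilage type II collagen, and Col11a1 (chr3:113923185-113923244, mm9, plus strand), a chain of type XI, stayed below the mark of well above background on all 16 arrays and were not tested. The scanner software has a weaker mark, a signal positive and significant against the local background. Col11a1 carried that weaker mark on all 5 WT CCl4 arrays and on 0 of the other 11. Its processed signal was 15.5, 18.7, 13.4, 13.0 and 12.4 intensity units in WT CCl4, 6.91, 6.06, 7.82 and 7.80 in WT controls, 9.04, 8.0 and 10.3 in Lcn2-/- controls, and 7.28, 7.38, 9.43 and 7.0 in Lcn2-/- CCl4. The 11 other values are surrogates that the software writes where a spot is not significant, so they have no order among themselves.

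With no filter on dim probes, over 36383 genes, Col11a1 passed the adjusted test in the WT response, in Lcn2-/- minus WT under CCl4 and in the interaction. Those calls set WT CCl4 against groups made only of surrogates, whose SD was at most 0.013, so they are not read as tests of a difference in RNA, and no difference is given because no array reached the mark of well above background. The WT CCl4 arrays also reached lower at the dim end. Their lowest log2 signal called well above background was 3.13 to 3.55, against 3.90 to 4.5 in Lcn2-/- CCl4 and 3.49 to 4.55 in controls, and the part of this in the Col11a1 values was not tested. WT CCl4 1, which shared slide 1 and row 2 with the Lcn2-/- controls, had Col11a1 at 3.72, within the 3.46 to 3.82 of its group. Col2a1 carried the weaker mark on 2 arrays, WT CCl4 2 (14.7 units) and Lcn2-/- CCl4 4 (25.2 units).

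**Figure D4:**
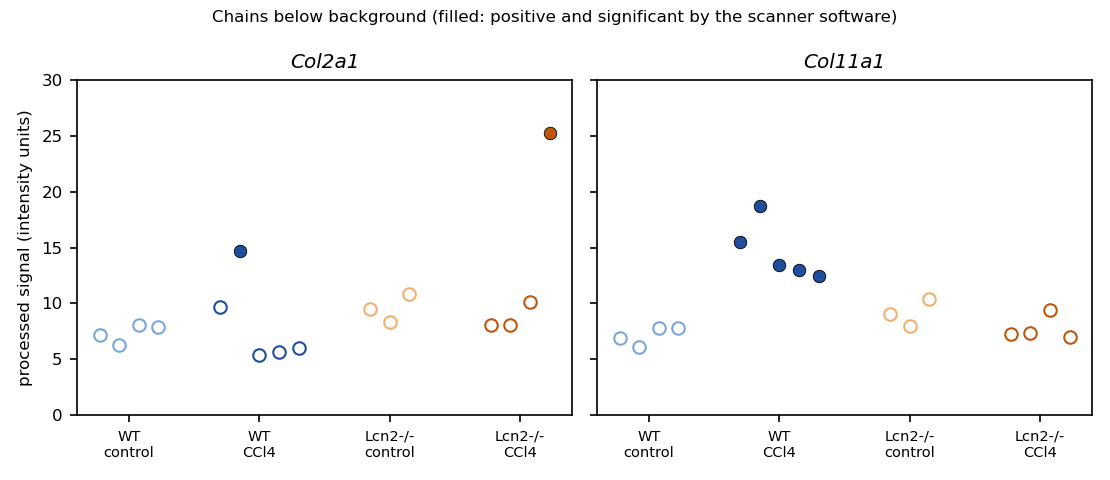
Processed signal, in intensity units on a linear scale, of Col2a1 and Col11a1 on each array, filled where the scanner software marked the spot as positive and significant. For Col11a1 the 5 WT CCl4 arrays, from 12.4 to 18.7 units, are filled and no other array is, while none of these spots was well above background.

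The other fibrillar collagen genes on the array were Col11a2, Col24a1 and Col27a1, and none was called in any of the 5 comparisons. Col11a2, the partner of Col11a1, was well above background on 13 arrays and differed by 0.11 in WT (95% interval -0.38 to 0.59). In Lcn2-/- no difference is given, since it was well above background on 1 of the 3 controls. Col24a1 was well above background on all 9 CCl4 arrays but on 1 of 4 WT controls and 0 of 3 Lcn2-/- controls. It measured 6.02 ± 0.192 in WT CCl4 (SD, n = 5) against 5.07 ± 1.04 in WT controls (SD, n = 4). In Lcn2-/- it measured 5.90 ± 0.162 under CCl4 (SD, n = 4) against 5.07 ± 0.557 in controls (SD, n = 3). Since most controls were not well above background, no fold or difference is given for Col24a1. Col27a1, well above background on all 16 arrays, differed by -0.19 in WT (interval -0.70 to 0.32) and -0.48 in Lcn2-/- (interval -1.06 to 0.10).

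Genes that build, trim, bind and break down fibrillar collagen were counted by role, from a list written with earlier results of these data known. The shares to set beside all counts by role are those over all genes tested. There 8.05% were called higher in WT and 6.57% in Lcn2-/-, and 16.7% and 12.2% in either direction. Of the 12 tested genes of folding and hydroxylation, 4 rose and 1 fell in each genotype. Serpinh1, the chaperone of procollagen, rose by 1.72 in WT (SE 0.214, adjusted p = 9.19e-05) and 1.87 in Lcn2-/- (SE 0.243, adjusted p = 0.000222). Plod2, which hydroxylates lysines for cross-links, rose by 1.69 (adjusted p = 0.00186) and 1.62 (adjusted p = 0.00837). The one that fell was Lepre1, a prolyl 3-hydroxylase, by 0.56 on the log2 scale in WT (adjusted p = 0.0461) and by 0.80 in Lcn2-/- (adjusted p = 0.0207).

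Of the 6 tested genes of propeptide removal, 3 rose in WT and 2 in Lcn2-/-, while Tll2 and Adamts3 were well above background on none of the 16 arrays. Adamts2, which cuts the N-terminal end piece, rose by 1.91 in WT and 1.74 in Lcn2-/- (adjusted p = 3.55e-05 and 0.000341), and Pcolce, which speeds C-terminal cutting, by 1.09 and 1.17 (adjusted p = 0.00118 and 0.00273). Of the 5 cross-linking genes 4 passed the adjusted test as higher in each genotype. The WT count holds Lox, and the Lcn2-/- count holds Loxl4, which was well above background on 0 of the 3 controls there. Loxl1 rose by 2.78 in WT and 3.18 in Lcn2-/- (adjusted p = 1.84e-05 and 2.84e-05). Lox was well above background on all 5 WT CCl4 arrays and on 1 array of each other group. Its WT call is therefore not read as a rise, and no difference is given for it.

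Of the 9 fibril-associated collagens and proteoglycans 7 rose in WT and 5 in Lcn2-/-. Lum, a proteoglycan on the fibril surface, rose by 2.78 and 2.53 (adjusted p = 4.82e-06 and 4.72e-05), and Tnxb, a matrix protein that binds fibrils, by 2.01 and 1.72 (adjusted p = 4.72e-05 and 0.000755). Of the 8 receptor and uptake genes 5 rose in WT and 4 in Lcn2-/-. Ddr1, a receptor kinase for collagen, rose by 2.54 and 2.92 (adjusted p = 4.45e-05 and 7.04e-05), and Mrc2, an uptake receptor for collagen fragments, by 2.57 in WT (adjusted p = 0.0004). In Lcn2-/- Mrc2 also passed, with no difference given because it was well above background on 4 of 4 CCl4 arrays and 0 of 3 controls.

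Of the 7 genes of cleavage and its inhibitors 6 passed the adjusted test as higher in WT and 5 in Lcn2-/-. Both counts hold Mmp8, which was well above background on 1 of 4 WT controls and 0 of 3 Lcn2-/- controls. Its calls are therefore not read as rises. Ctsk, a cysteine protease that cuts the collagen helix, rose by 5.38 in WT (SE 0.44, adjusted p = 3.93e-06) and 3.45 in Lcn2-/- (SE 0.501, adjusted p = 0.000535). Mmp2, a gelatinase, rose by 3.82 and 4.38 (adjusted p = 7.71e-07 and 5.19e-07). Of the 10 tested inducers and their signalling genes 6 rose in WT and 5 in Lcn2-/-. Tgfb3, a TGF-beta ligand, rose by 2.63 and 2.29 (adjusted p = 3.09e-05 and 0.000426), and Ctgf, a matricellular protein, by 1.83 in WT (adjusted p = 0.00255), with 1.24 in Lcn2-/- (adjusted p = 0.0582). No gene of these 7 roles was called in either genotype comparison or in the interaction, Ctsk included at -1.75 under CCl4 (SE 0.44, adjusted p = 0.104). Over all genes tested 0.65% were called under CCl4, 0.518% in controls and 0.0534% in the interaction. Finding none in lists this short is near those shares.

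**Figure D5:**
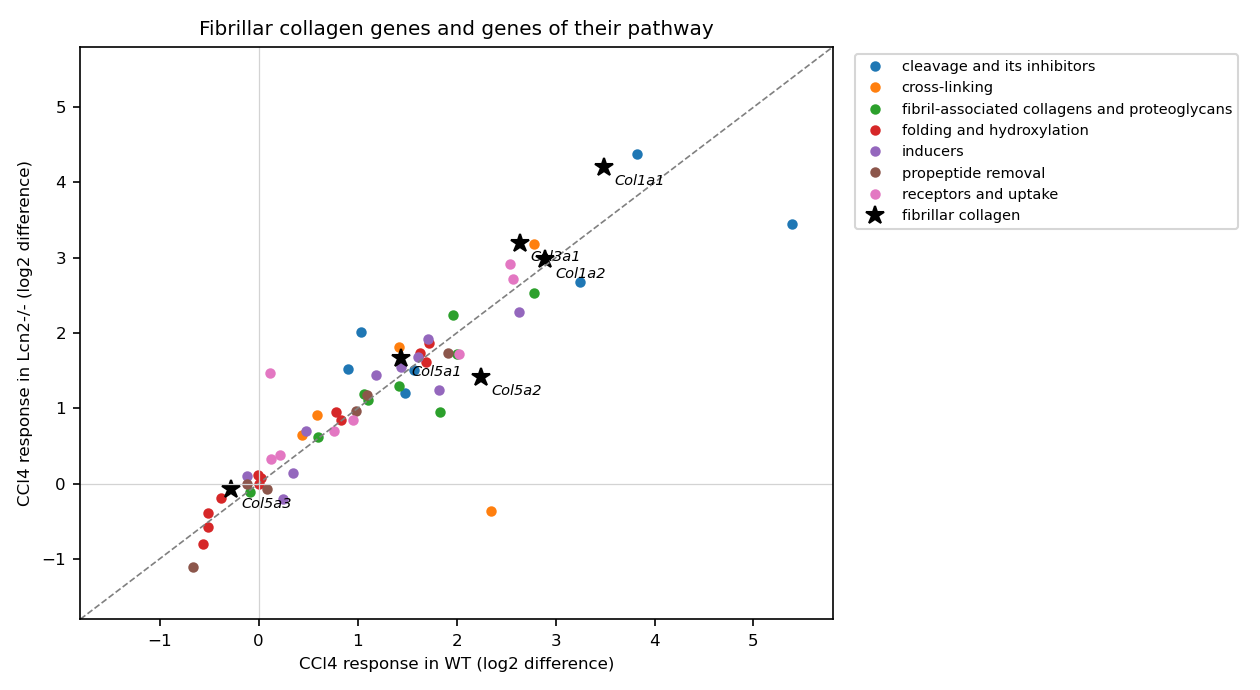
CCl4 response in WT (x axis) and in Lcn2-/- (y axis), as log2 differences, of the 6 tested fibrillar collagen genes (stars) and the tested genes of their pathway by role (dots), with the line of equal response. Most points lie near the line, and the farthest below it are Ctsk (5.38 and 3.45) and Lox, whose point rests on dim spots since it was well above background on 8 of 16 arrays.

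Marker lists of cells that make or could bring in collagen differed in how many of their members rose. Over all genes tested 8.05% were called higher in WT and 6.57% in Lcn2-/-, and 16.7% and 12.2% in either direction. Of 9 stellate cell markers 5 rose and 2 fell in WT, and 5 rose and 1 fell in Lcn2-/-, all 9 being well above background on every array. The summed normalized signal of that list ran from 86987 to 105345 in WT controls, 67914 to 88322 in WT CCl4, 89759 to 109209 in Lcn2-/- controls and 73538 to 83846 in Lcn2-/- CCl4. Such sums, here and below, weigh the brightest probes most and are not read as amounts of a cell type. Lrat, which stores retinol in quiescent stellate cells, rose by 1.06 in WT and 1.17 in Lcn2-/-, and Pdgfrb, a receptor of mesenchymal cells, by 1.71 and 1.92. Those that fell were Ecm1, a secreted matrix protein, at -0.69 in WT and -0.76 in Lcn2-/-, and in WT the neurotrophin receptor Ngfr, at -0.88 (adjusted p = 0.00694). Of 6 portal fibroblast markers 4 rose in each genotype, with Eln at 1.63 and 2.41 and Cd34 at 2.13 and 2.03, while Thy1 was at 0.03 and 0.91 (neither called). The sum of the portal fibroblast list ran from 5101 to 10415 in WT controls, 13755 to 20290 in WT CCl4, 3457 to 4707 in Lcn2-/- controls and 8528 to 16238 in Lcn2-/- CCl4. Of 5 myofibroblast markers 1, Lox, was called in WT and none in Lcn2-/-. That call is not read as a rise or as a contrast between genotypes. Lox was well above background on all 5 WT CCl4 arrays but on 1 array of each other group. Acta2 was at 0.37 in WT (adjusted p = 0.613) and 0.39 in Lcn2-/- (adjusted p = 0.657). The sum of the myofibroblast list ran from 23515 to 40922 in WT controls, 11410 to 35011 in WT CCl4, 25165 to 28590 in Lcn2-/- controls and 12926 to 31223 in Lcn2-/- CCl4. The part of these cell types in the collagen values was not tested.

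Genes whose deviations from their group means were most like those of Col1a1 over the 16 arrays were Col1a2 (Pearson r = 0.944), Anxa2 (0.942), Slc2a1 (0.938), Cd63 (0.935) and St3gal2 (0.931). Col3a1 ranked 6 (r = 0.924) and Col5a1 16 (r = 0.899) among the genes tested, while Col5a2 ranked 4081 (r = 0.325) and Col5a3 7196 (r = 0.141). These points share arrays and RNA, and WT control 3 weighed on them. Without it Col1a2 was at r = 0.922 and rank 3, while Anxa2 (r = 0.816, rank 33), Slc2a1 (0.809, rank 38), Cd63 (0.796, rank 51) and St3gal2 (0.801, rank 48) were no longer among the first 5. Col3a1 was then at r = 0.778 and rank 68, Col5a1 at 0.748 and rank 113, Col5a2 at 0.251 and rank 5871, and Col5a3 at 0.338 and rank 4274.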

How the data were processed

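RNA from 16 liver samples was measured on 1-colour Agilent arrays. The authors labelled it with Cy3 and ran Feature Extraction 10.7.3.1, and the deposited files hold spot intensity values on a linear scale, not normalized between arrays. A second deposited file gives log2 values for these arrays, whose order within each array was that of the median spot signal minus local background (Spearman's rho of 1 over the spots where that is positive), with column medians of 6.53 to 6.55. It served as an alternative, and its further steps are not stated beyond quantile normalization.

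Of 62976 spots, 3671 were controls. Log2 processed signals of the 59305 gene spots were quantile normalized, spots of a probe were averaged (55681 probes), and 121 probes marked as outliers on some array were dropped. The 33022 probes that passed the scanner's mark of well above background on 3 or more arrays were kept, and the brightest probe per gene name gave 24325 genes, with names as in the files. Limma 3.58.1 in R 4.3.3 fitted 4 groups without covariates, and adjusted p is after Benjamini-Hochberg per contrast (the study's methods name limma and this adjustment, not the model). Exact permutation tests and figures used Python 3.11.15. The script was tested on simulated data. The members and lists were chosen with earlier results of these data known. All members were to be named, with the 2 genes per role of largest WT response among those called in WT or Lcn2-/- and the 5 genes most like Col1a1. Lepre1, Thy1 and the markers quoted were chosen after their values were seen.

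Motifs were searched in the 250 bases before the start only, although 50 bases after it were at hand. Replicate numbers in the titles were checked as pairs by correlating deviations from group means. In controls all 3 pairs exceeded 0.1 (0.234, 0.368 and 0.552) and count as paired, while in the other comparisons some pairs did not. The labels name no pairs. In controls the 2 arrays of each pair also lay in the same column of slide 1. Pairing of samples and position on the slide therefore cannot be told apart there. Alternatives were other scaling, background correction, value table, probe summary, dim filter, slide, replicate block, array weights, sample sets and each array left out. Precision is limited by the number of arrays. Arrays of a group correlated at 0.974 to 0.992 across genes.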

Additional observations from a re-analysis of the deposited data

Results flagged for a closer look

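In groups of 4 or 5 arrays, 9 of 36 sets of values had 1 array set apart from the rest. For a single set chance gives about 1 in 20. The sets share arrays and genes, so their count is not tested against that rate. The number is the gap to the nearest array as a share of the whole range. WT control 3 was set apart for Col3a1 (0.855), for Col5a1 (0.956) and for Col5a3 minus Col5a1 (0.921). Lcn2-/- CCl4 2 was the high array for Col5a1 (0.939). For Col1a1 minus Col1a2, WT CCl4 5 (0.755) and Lcn2-/- CCl4 4 (0.863) were the high arrays of their groups. For Col5a1 minus Col5a2, WT control 1 was the low array (0.837) and Lcn2-/- CCl4 1 the high one (0.871). WT CCl4 1 was the low array for Col5a3 minus Col5a1 (0.726).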

How the results depend on the processing

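Besides the slide block given above, counts of called fibrillar collagen genes changed in the CCl4 responses. In WT 6 of 8 were called with no filter on dim probes, and 4 of 5 when all 16 arrays had to be well above background. In Lcn2-/- 5 were called with array weights, without both replicates 3 of the controls, and in the fits without 1 array given for Col5a2. In the other comparisons counts changed from 0 to 1 in 3 places. With no filter on dim probes 1 gene (Col11a1) was called in Lcn2-/- minus WT under CCl4 and 1 in the interaction, and with array weights 1 gene (Col1a1, -1.32, adjusted p = 0.0394) was called in Lcn2-/- minus WT in controls. Of the values of single genes under alternatives, 810 kept their direction and their side of the threshold, 12 changed direction, 2 lost a call and 5 gained one. The Col5a2 difference in controls, not read because of the dim Lcn2-/- controls, turned to 0.053 with normexp background correction and 0.042 with the authors' value table, and ran from -0.94 to 0.27 with 1 array left out. The Col1a2 interaction was -0.036 with the replicate block, -0.15 with array weights and -0.36 without WT control 3 and Lcn2-/- control 3, and ran from -0.35 to 0.32 with 1 array left out. The Col5a3 response in Lcn2-/- ran from -0.15 to 0.010 in those fits. Col5a2 in Lcn2-/- was also called with array weights (adjusted p = 0.00203) and without both replicates 3 of the controls (adjusted p = 0.00214). Except where fewer arrays were used, the cause was not tested.

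The replicate block changed no other direction and no call, with Col1a1 at -1.81 in controls (adjusted p = 0.243). With it the count of all genes called under CCl4 between genotypes went from 158 to 87 and in the interaction from 13 to 6. Only WT CCl4 has a replicate 5, so the block also takes that array out of the differences. Leaving that array out, with no block, gave 102 and 9 calls. Over all genes, slide as a fixed block gave 1295 calls in WT, against 4061, and 426 in Lcn2-/-, against 2958. Scaling to the 75th percentile, which moved the median of all genes in WT from -0.03 to -0.16, made 1579 of 5126 calls higher in WT, against 1959 of 4061. In Lcn2-/- the same scaling made 1181 of 3238 calls higher, against 1599 of 2958. Array weights raised the calls to 7017 in WT, 6978 in Lcn2-/-, 321 under CCl4 and 1255 in controls. In Lcn2-/- minus WT under CCl4, keeping the 2 groups alone gave 94 calls, and leaving out both controls 3 gave 255. Among chain pairs, with 1 array left out, Col5a1 minus Col5a2 ran from -0.53 to 0.73 for the Lcn2-/- response and -0.76 to 0.50 in controls (neither read, for the same dim controls), and Col5a2 minus Col1a1 under CCl4 from -0.17 to 0.25. Plain log2 signals reversed no pair, and the smallest adjusted p was 0.0529.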

Other observations

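Markers of the liver capsule and of cartilage, which also hold fibrillar collagen, were well above background in part. Of 4 mesothelium markers 3 rose in WT and 1 in Lcn2-/-, against 8.05% and 6.57% of all genes tested. Wt1, a transcription factor of mesothelium, rose by 3.57 on the log2 scale in WT and 3.05 in Lcn2-/-, and Upk3b, a membrane protein of mesothelium, by 1.81 in WT (adjusted p = 0.044), with 1.93 in Lcn2-/- (adjusted p = 0.0693). The summed normalized signal of the mesothelium list was 946 to 2883 in WT controls, 3218 to 7846 in WT CCl4, 1696 to 2276 in Lcn2-/- controls and 2423 to 11421 in Lcn2-/- CCl4. Of 5 cartilage markers 2 could be tested, and Comp, a matrix protein of cartilage and tendon, was well above background on 5 of the 16 arrays, so no difference is given for it. Acan, the main cartilage proteoglycan, differed by 0.34 in WT and 0.65 in Lcn2-/- and was called in neither. Their part in the collagen values was not tested.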
